A study of Homo sapiens with 21 samples.

Results

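The genes described here are 10 genes of the contractile actin cytoskeleton: ACTA2, ACTG2, TAGLN, CNN1, MYL9, TPM1, TPM2, CALD1, SRF and VCL. They were chosen by name, as the rows whose Ensembl identifier (version removed) maps to one of these symbols, and all 10 have a row among the 42339 genes of the count table. The choice was made with earlier results of these data known, so shares and medians set beside those of all genes are descriptions. RNA was measured by stranded, paired-end mRNA sequencing of BT-549 cells, an established triple-negative breast cancer (TNBC) cell line labelled wild-type, in 21 libraries that fall into 7 groups of 3. The 2D cells were grown attached in serum-containing medium, and the 3D cells are mammospheres at serial passage 6, grown without attachment in a mammosphere medium, both labelled as untreated controls. The other groups are 3D cells at passage 6 treated with 0.75 μM GO-203 (a peptide directed against the MUC1-C cytoplasmic domain), and mammospheres of lines that carry a tetracycline-inducible shRNA. The tet-MUC1shRNA mammospheres (passage 6) and the tet-MYCshRNA mammospheres (passage 8) received 0.1% DMSO as vehicle or 500 ng/ml doxycycline (DOX), which switches on the shRNA. Each line carries 1 shRNA sequence, and a DOX-treated control shRNA line was not analysed here. Growth format and medium change together between 2D and 3D cells and cannot be told apart. The tet-MUC1shRNA and tet-MYCshRNA mammospheres differ in passage as well as in shRNA.

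Contractile force in cells comes from myosin filaments that pull on actin filaments. Tropomyosins lie along the actin filament, caldesmon, calponin and transgelin bind it, the myosin regulatory light chain controls the motor, and vinculin ties the filaments to the sites where a cell holds on to its surroundings. SRF is the transcription factor that, with cofactors of the MRTF family, binds the CArG box in the promoters of many such genes. When cells spread and assemble filaments, free actin monomers become scarce and MRTFs, which those monomers hold in the cytoplasm, can enter the nucleus. The set is best known from smooth muscle and myofibroblasts, and mesenchymal cancer cells in culture commonly express part of it.

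The promoters of SRF and ACTA2 are shown because they hold letters that match, or nearly match, the CArG box that SRF binds. Both sequences are from RefSeq on GRCh38.p14 and run over the 250 bases before a transcription start, and capitals mark the matches found.
SRF, chr6:43171019-43171268, plus strand: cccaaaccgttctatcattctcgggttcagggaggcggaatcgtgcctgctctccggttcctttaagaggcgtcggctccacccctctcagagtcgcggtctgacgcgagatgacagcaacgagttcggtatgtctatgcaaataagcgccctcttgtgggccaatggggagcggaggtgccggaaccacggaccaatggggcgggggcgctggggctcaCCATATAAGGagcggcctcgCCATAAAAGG
ACTA2, chr10:88952774-88953023, minus strand: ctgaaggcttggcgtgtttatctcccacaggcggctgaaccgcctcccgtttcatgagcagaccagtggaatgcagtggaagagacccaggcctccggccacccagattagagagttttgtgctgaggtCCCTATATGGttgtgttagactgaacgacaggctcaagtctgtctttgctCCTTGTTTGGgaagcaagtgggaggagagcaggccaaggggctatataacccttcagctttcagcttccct

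The SRF promoter holds 2 exact CArG boxes, whose first bases lie 30 and 10 bases before the start. In the ACTA2 promoter, both marked stretches depart from the box by 1 C or G within its A/T-rich core, and they begin 121 and 71 bases before the start. ACTG2 holds 2 exact boxes, CCTTATATGG at 110 bases and CCTTTTTAGG at 73 bases before its start at position 73893008 of chromosome 2. CALD1 holds 1 stretch with a departure, CCTAAAGAGG, 26 bases before a RefSeq start at position 134711499 of chromosome 7, which lies upstream of the gene as GENCODE annotates it, and its 3 other starts hold none. Of the 10 genes, 8 had promoters in the RefSeq table, with 14 starts in all. TAGLN and MYL9 had no entry. Windows of 300 bases (250 before and 50 after each start) were searched on both strands, and 1.29% of 35116 promoters of all genes held an exact box and 6.94% a box with 1 departure. CACGTG, the letters bound by MYC with its partner MAX, was found in 0 of the 14 promoters and in 7.26% of all promoters. These matches are descriptions of letters in a window and say nothing of binding in these cells.

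Library totals ran from 38026597 to 99751717 counts, and each of the 21 libraries was closest in expression to another library of its own group. Pairs of replicates were set against counting error by a chi-square over genes, where counting error alone gives a value near 1 after division by the degrees of freedom. This value was 19.5 to 52.8 among the tet-MYCshRNA libraries with DOX and 4.36 to 21 within the other groups. Levels are given as CPM, the count of a gene relative to its library's total, scaled with TMM factors over all 21 libraries. Fold changes come from edgeR's quasi-likelihood test on the 6 libraries of a comparison, with p-values adjusted over all genes tested, and a gene passed the test at an adjusted p below 0.1. Low counts were mostly even numbers (66.7% to 71.0% of the counts from 1 to 9, against 49.5% to 51.6% of those of 1000 or more), and how the mates of a read pair were counted was not tested. MYL9 was even in 20 of 21 libraries. The labels number the 3 cultures of a group, and p-values measure the spread among them. In bulk RNA, fewer cells of a kind and less RNA per cell cannot be told apart.

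The cell line and the silencing were checked before the contractile genes were read. VIM, a mesenchymal filament protein, stood at 1080 to 2480 CPM, and EPCAM, an epithelial surface protein, had at most 6 counts in any library. Other markers of these states moved with the comparisons. The mesenchymal cadherin CDH2 was at 430 to 452 CPM in 2D cells, 50.3 to 52.0 in 3D cells, 11.3 to 12.9 in tet-MUC1shRNA cells with vehicle and 73.4 to 74.7 with DOX, and FN1 (fibronectin) went from 441 to 465 CPM in 2D cells to 6380 to 6980 in 3D cells. FN1 fell on silencing MUC1-C, from 9960 to 11000 CPM to 7020 to 7290 CPM (log2 fold change -0.51, edgeR adjusted p = 1.19e-09), and rose by 1.25 on MYC silencing (adjusted p = 1.78e-07). The epithelial genes stayed low, but on silencing MUC1-C KRT8 rose from at most 0.0787 CPM to between 1.13 and 1.5 CPM, KRT18 from at most 0.0941 to between 0.794 and 0.973, and CDH1 from at most 0.0522 to between 0.23 and 0.408 (edgeR adjusted p = 3e-08, 1.18e-06 and 0.000579). CDH1 was at 1.26 to 1.51 CPM in 2D cells and at 0 in 3D cells. MYH11 and DES, which define differentiated smooth muscle, had at most 4 and 14 counts in any library. PECAM1, a surface protein of endothelial cells, was at 0 to 0.0342 CPM in 2D cells and 5.91 to 7.28 CPM in 3D cells, while PTPRC, the common blood cell marker, was at 1.02 to 1.48 CPM in 2D cells and 0.031 to 0.117 CPM in 3D cells. Their part in the results was not tested. MUC1 went from 83.1 to 101 CPM with vehicle to 19.7 to 23.3 CPM with DOX in the tet-MUC1shRNA line, and MYC from 386 to 439 CPM to 244 to 297 CPM in the tet-MYCshRNA line. The other target moved too. MUC1 rose by 1.25 on the log2 scale on MYC silencing and by 0.33 with GO-203 (edgeR adjusted p = 5.06e-06 and 0.00191), and MYC rose by 0.25 on silencing MUC1-C (adjusted p = 5.01e-05).

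**Figure D1:**
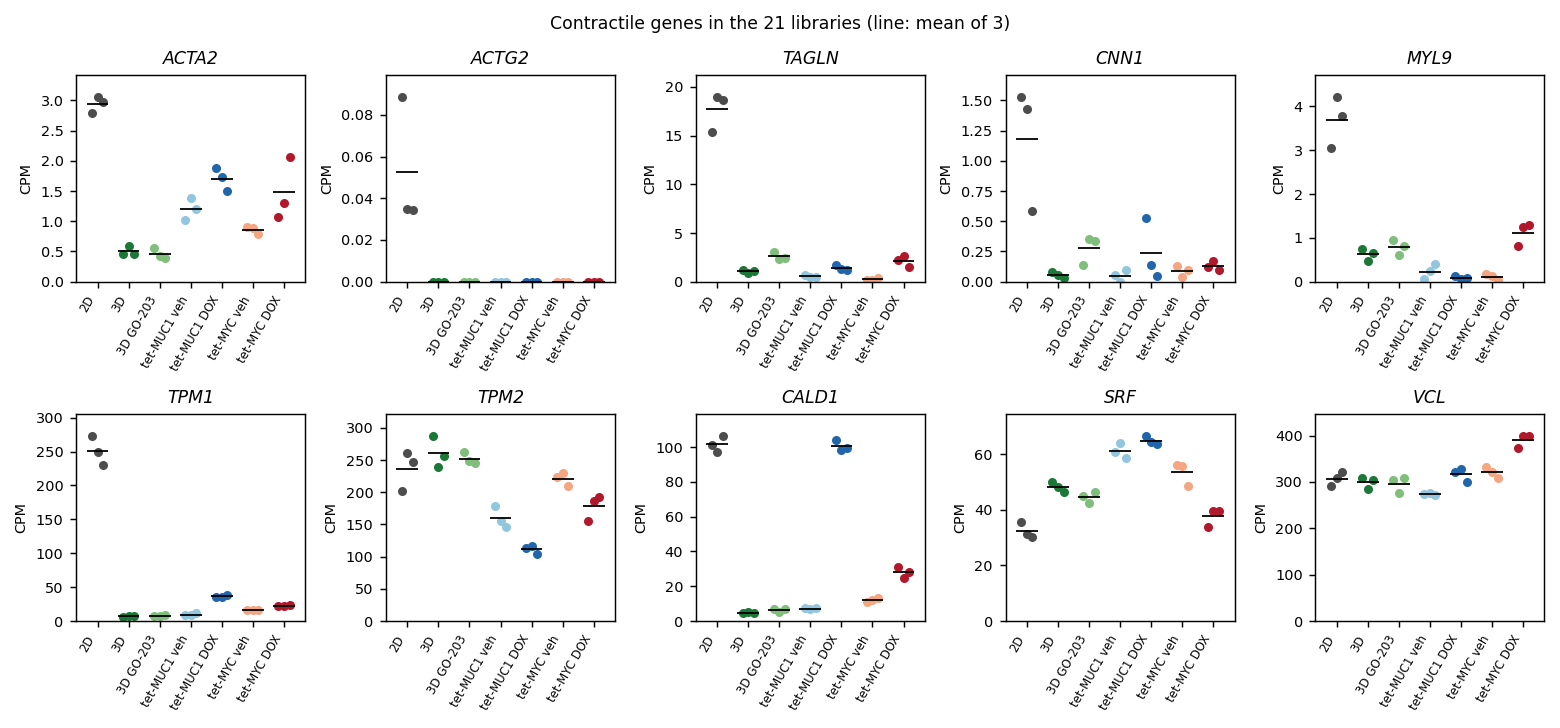
Level of each of the 10 genes in CPM (vertical axes, linear and starting at 0) in the 21 libraries, grouped along the horizontal axis, with a line at the mean of 3. ACTA2, TAGLN, CNN1, MYL9 and TPM1 are highest in 2D cells, CALD1 is as high in tet-MUC1shRNA cells with DOX (98.6 to 104 CPM) as in 2D cells (97.1 to 106 CPM), and TPM2, SRF and VCL follow other patterns.

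Among 3D vs. 2D cells, which asks what changes when attached cells become serially passaged mammospheres, 6 of the 9 genes that could be tested were downregulated, 1 was upregulated and 2 did not pass the test. The 6 that fell were TPM1, CALD1, CNN1, TAGLN, MYL9 and ACTA2, and each fell by more than 1.5 on the log2 scale. CNN1 is counted in the 6 and in the median below, but it entered the test only through the 2D libraries, where it is high. Its pass is therefore no support. The gene that rose was SRF, and TPM2 and VCL did not pass. Of all 19190 genes tested, 32.0% passed in the upward direction and 31.7% in the downward direction, and 9.29% passed with a fall of more than 1.5. The median log2 fold change was -2.57 over the 9 genes and -0.01 over all genes tested.

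ACTA2, which encodes the alpha actin of smooth muscle, was at 2.79, 3.06 and 2.97 CPM in the 2D libraries and at 0.457, 0.585 and 0.465 CPM in the 3D libraries. The groups did not overlap, and the log2 fold change was -2.55 ± 0.229 (SE, edgeR adjusted p = 6.57e-08). Exons of ACTA2 (chromosome 10, 88935074 to 88991339, minus strand) share 36.0% of their bases with genes on the other strand, among them FAS and ACTA2-AS1, and 7.13% with ENSG00000286116 on the same strand, so the gene's low counts are uncertain. ACTG2, the gamma actin of enteric smooth muscle (chromosome 2, 73892314 to 73919865, plus strand), had 4, 2 and 2 counts in the 2D libraries and 0 in the 18 other libraries. It was too low to be tested, and a count of 0 allows up to 3 counts, so a difference was not detectable at this depth.

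TAGLN, or transgelin, an actin-binding protein of smooth muscle and an early mark of the myofibroblast state, stood at 15.4, 19.0 and 18.7 CPM in 2D cells. In 3D cells it was at 1.25, 0.878 and 1.09 CPM, lower in each library than in any 2D library. The log2 fold change was -4.05 ± 0.149 (SE, edgeR adjusted p = 7.41e-13). The TAGLN exons (chromosome 11, 117199370 to 117207464, plus strand) share 38.1% of their bases with an overlapping gene on the same strand, ENSG00000280143, and 34.1% with PCSK7 on the other strand, so the reads of these genes may be mixed. CNN1, the calponin of smooth muscle that binds actin and restrains myosin (chromosome 19, 11538767 to 11550323, plus strand), had 69, 82 and 34 counts in 2D cells and 4, 3 and 2 counts in 3D cells. Its fitted log2 fold change of -4.35 ± 0.535 (SE) rests on 9 counts in all of the 3D libraries. The gene entered the test through the 2D libraries, where it is high, so this is given as a value only.

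MYL9, a regulatory light chain of myosin II that is rich in smooth muscle (chromosome 20, 36541497 to 36551447, plus strand), stood at 3.06, 4.22 and 3.79 CPM in 2D cells and at 0.747, 0.468 and 0.651 CPM in 3D cells. The groups did not overlap, and the log2 fold change was -2.57 ± 0.232 (SE, edgeR adjusted p = 7.18e-08). CALD1, or caldesmon, which binds actin, tropomyosin and myosin (chromosome 7, 134744252 to 134970729, plus strand), went from 101, 97.1 and 106 CPM in 2D cells to 4.84, 5.13 and 4.39 CPM in 3D cells. That is 21.4-fold lower, with a log2 fold change of -4.42 ± 0.0813 (SE, edgeR adjusted p = 1.38e-16).

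The tropomyosin genes parted. TPM1 (chromosome 15, 63042620 to 63071915, plus strand) was at 273, 249 and 230 CPM in the 2D libraries and at 6.10, 6.91 and 7.19 CPM in the 3D libraries. It was 37.2-fold lower, and its log2 fold change of -5.22 ± 0.087 (SE, edgeR adjusted p = 5.15e-17) was the most negative of the 10 genes. TPM2 (chromosome 9, 35681992 to 35690056, minus strand), which has an annotated pseudogene that could take some of its reads, had 202, 260.5 and 247.5 CPM in 2D cells and 287, 239 and 256 CPM in 3D cells. Its groups overlapped, and the log2 fold change of 0.13 ± 0.0845 (SE, edgeR adjusted p = 0.194) did not pass. TPM2 did pass without 2D replicate 2 (log2 fold change 0.22, edgeR adjusted p = 0.0595) and without 3D replicate 2 (0.21, adjusted p = 0.0787).

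SRF (chromosome 6, 43171269 to 43181506, plus strand) rose while most of the contractile genes fell. It had 35.5, 31.4 and 30.3 CPM in 2D cells and 49.96, 48.3 and 46.4 CPM in 3D cells, without overlap, and the log2 fold change was 0.57 ± 0.0708 (SE, edgeR adjusted p = 3.26e-06). VCL, or vinculin (chromosome 10, 73995193 to 74121363, plus strand), was at 290.5, 309 and 321 CPM in 2D cells and at 308, 286 and 305 CPM in 3D cells. Its log2 fold change of -0.04 ± 0.0562 (SE, edgeR adjusted p = 0.551) did not pass, and the groups overlapped.

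The size of these differences depended on which mammospheres were set against 2D cells. When the 3D libraries were replaced by those of the tet-MUC1shRNA line with vehicle, the log2 fold change was -1.29 for ACTA2, -5.01 for TAGLN, -3.94 for MYL9, -4.71 for TPM1 and -3.82 for CALD1. With those of the tet-MYCshRNA line with vehicle, it was -1.76 for ACTA2, -6.04 for TAGLN, -4.87 for MYL9, -3.94 for TPM1 and -3.08 for CALD1. All 5 passed the test in both alternatives and kept their direction, as did CNN1 and SRF. CNN1 and MYL9 entered both of these fits through the 2D libraries, where they are high, so their passes are no support. TPM2 instead fell by 0.57 on the log2 scale (edgeR adjusted p = 1.73e-05) with the tet-MUC1shRNA mammospheres, and VCL fell by 0.17 (adjusted p = 0.00923).

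**Figure D2:**
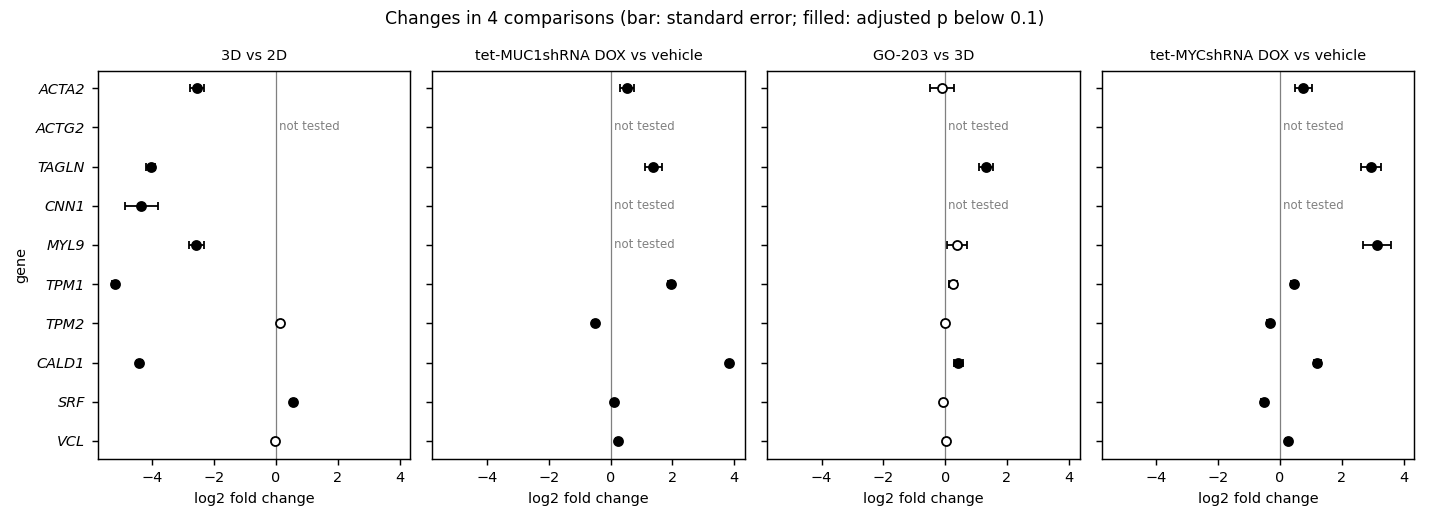
Log2 fold change (horizontal axes) of the 10 genes in the 4 comparisons, 6 libraries each, with bars of 1 standard error and filled points for an adjusted p below 0.1. The falls of 3D vs. 2D cells reach -5.22 for TPM1, and the rises on silencing MUC1-C reach 3.83 for CALD1. On MYC silencing TAGLN rises by 2.95. MYL9, at 3.14 there, entered the test through the DOX libraries, where it is high, and CNN1 in 3D vs. 2D cells entered through the 2D libraries. With GO-203 TAGLN, at 1.32, is the only one of the 8 genes tested past 1.

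Levels divided by the length of a gene's exons allow the members to be set beside their relatives in non-muscle cells. In CPM per kilobase of exon, 2D cells held 2470 ± 71.8 (SD, n = 3) of ACTB, the actin of all cells, and 0.523 ± 0.024 (SD, n = 3) of ACTA2. TAGLN2, a relative of transgelin, was at 238 ± 16.1 CPM per kilobase in 2D cells and TAGLN at 2.7 ± 0.305. CNN3, a calponin of non-muscle cells, was at 183 ± 5.92 and CNN1 at 0.415 ± 0.183. The light chain gene MYL12B was at 97.2 ± 7.99 and MYL9 at 1.31 ± 0.209, so each of the smooth muscle forms was the lesser partner per length even in the 2D cells where it was highest. Between 3D and 2D cells the log2 fold change was -0.23 for ACTB (edgeR adjusted p = 0.000314), 0.12 for ACTG1, the other actin of non-muscle cells (adjusted p = 0.0728), -0.50 for the other non-muscle calponin, CNN2 (adjusted p = 2.62e-06), -0.32 for TAGLN2 (adjusted p = 0.000186), -0.35 for MYL12B (adjusted p = 0.000598) and 0.00 for CNN3 (adjusted p = 0.972). The light chain genes MYL12A (0.09) and MYL6 (-0.06) did not pass (edgeR adjusted p = 0.26 and 0.516).

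The mix of the 4 tropomyosin genes changed. Per kilobase of exon, TPM1 made up 9.67% ± 1.28 (SD, n = 3) of the tropomyosin counts in 2D cells and 0.278% ± 0.0321 in 3D cells. On DOX it went from 0.463% ± 0.0935 to 2.53% ± 0.184 in tet-MUC1shRNA mammospheres and from 0.621% ± 0.0229 to 1.05% ± 0.0333 in tet-MYCshRNA mammospheres. GO-203-treated 3D cells had 0.335% ± 0.0598. TPM2 held 41.9% ± 3.35 in 2D cells and 49.5% ± 2.69 in 3D cells. The annotated exons of TPM1 span 14700 bases over all of its isoforms, against 3183 for TPM2, so these shares depend on the annotation. The table lists TPM1 and TPM3 under other versions of their identifiers than the annotation used for the lengths, so the lengths counted over may differ, and gene counts do not separate the isoforms of TPM1 or CALD1.

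**Figure D3:**
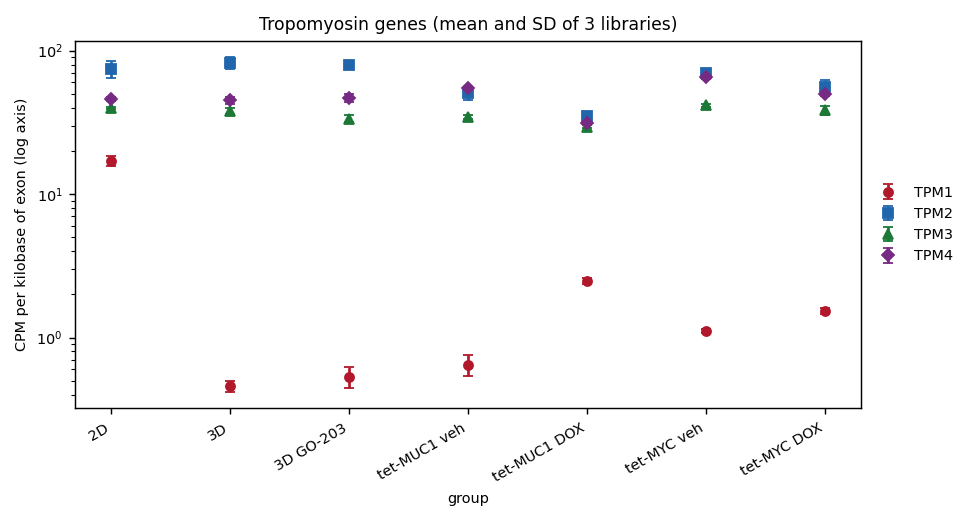
CPM per kilobase of exon (vertical axis, logarithmic) of TPM1, TPM2, TPM3 and TPM4 in the 7 groups, as the mean and SD of 3 libraries. TPM1 goes from 17.1 in 2D cells to 0.458 in 3D cells and stands at 2.48 in tet-MUC1shRNA cells with DOX, whereas the other 3 genes stay between 29.5 and 81.9.

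Silencing MUC1-C asks which genes depend on this protein, the transmembrane subunit of mucin 1, in mammospheres. Of the 7 members tested, 6 were upregulated and 1 was downregulated, and CALD1 and TPM1 rose by more than 1.5 on the log2 scale. Over all 19220 genes tested, 30.7% passed upward, 31.6% downward, and 5.74% passed with a rise of more than 1.5. The median log2 fold change was 0.52 over the 7 members and 0.02 over all genes. Scaling by library size alone moved the median of all genes to 0.19 in this comparison, and the members keep their directions under it.

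CALD1 showed the greatest difference. It stood at 7.26, 6.78 and 7.53 CPM with vehicle and at 104, 98.6 and 99.8 CPM with DOX, so each DOX library lay far above each vehicle library. The rise was 14.2-fold, with a log2 fold change of 3.83 ± 0.0627 (SE, edgeR adjusted p = 2.34e-20). The values with DOX overlapped those of 2D cells. TPM1 rose from 8.43, 8.75 and 11.4 CPM to 36.0, 35.2 and 38.1 CPM, a 3.86-fold change (log2 fold change 1.95 ± 0.0907 SE, edgeR adjusted p = 1.63e-13), and remained below each of the 2D libraries.

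TAGLN was at 0.731, 0.494 and 0.452 CPM with vehicle and at 1.72, 1.31 and 1.25 CPM with DOX, without overlap. Its log2 fold change was 1.39 ± 0.286 (SE, edgeR adjusted p = 0.000306). ACTA2 had 1.02, 1.39 and 1.20 CPM with vehicle and 1.88, 1.73 and 1.497 CPM with DOX. The groups did not overlap and the log2 fold change was 0.52 ± 0.223 (SE, edgeR adjusted p = 0.0524), but the gene did not pass without vehicle replicate 1 (adjusted p = 0.16) or without DOX replicate 1 (adjusted p = 0.146). CNN1, MYL9 and ACTG2 were too low to be tested. CNN1 had 2, 0 and 5 counts with vehicle and 30, 10 and 2 counts with DOX, and MYL9 had 2, 10 and 20 counts with vehicle and 8, 4 and 4 counts with DOX, with overlap in both. In fits in which they did enter, CNN1 passed upward (log2 fold change 2.17 without a filter, edgeR adjusted p = 0.022, and 2.16 with all 21 libraries, adjusted p = 0.0354). MYL9 entered 6 such fits, at -1.32 with all 21 libraries (edgeR adjusted p = 0.0595) and -1.25 without a filter (adjusted p = 0.212). The other fits each left out 1 library, and MYL9 entered them through the vehicle libraries, where it is higher. Its log2 values there, from -1.71 to -0.94, are given as values only.

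TPM2 was the member that fell. It had 178, 155.5 and 146 CPM with vehicle and 114, 117 and 103.5 CPM with DOX, and the log2 fold change was -0.50 ± 0.0599 (SE, edgeR adjusted p = 4.17e-07). VCL rose from 274, 277 and 272 CPM to 322, 329 and 299.8 CPM (log2 fold change 0.23 ± 0.0415 SE, edgeR adjusted p = 6.94e-05). SRF had 61.0, 64.2 and 58.6 CPM with vehicle and 66.6, 64.3 and 63.8 CPM with DOX. These overlap, and its log2 fold change of 0.11 ± 0.0517 (SE, edgeR adjusted p = 0.0842) was lost when any of vehicle replicates 1 and 3 or DOX replicates 1, 2 and 3 was left out (adjusted p 0.102 to 0.255), without a filter on low counts (adjusted p = 0.166) and with all 21 libraries in one fit (adjusted p = 0.39).

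MYC silencing asks the same of MYC, in mammospheres of another line. All 8 members tested passed, 6 of them upward and 2 downward, and TAGLN rose by more than 1.5 on the log2 scale. MYL9 is counted in the 8, in the 6 and in the median below. It entered the test through the DOX libraries, where it is high, so its pass is no support. Of the 19951 genes tested, 30.3% passed upward and 28.1% downward, and 7.06% passed with a rise of more than 1.5. The median log2 fold change was 0.61 over the 8 members and 0.01 over all genes. By the chi-square, DOX replicate 1 stood further from the other DOX libraries than replicates of any other group did from each other, and without it all 8 members passed in the same directions.

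MYL9 stood at 0.186, 0.138 and 0.0327 CPM with vehicle (14, 14 and 2 counts) and at 0.807, 1.24 and 1.296 CPM with DOX (40, 72 and 82 counts). Each DOX library was above each vehicle library, and MYL9 entered the test through the DOX libraries, where it is high. The fitted log2 fold change of 3.14 ± 0.466 (SE) is therefore given as a value only. TAGLN rose from 0.213, 0.227 and 0.392 CPM to 2.26, 2.67 and 1.501 CPM, a 7.75-fold change (log2 fold change 2.95 ± 0.332 SE, edgeR adjusted p = 3.3e-05). CALD1 rose from 11.03, 11.9 and 13.1 CPM to 31.2, 24.6 and 28.4 CPM, a 2.30-fold change (log2 fold change 1.20 ± 0.114 SE, edgeR adjusted p = 9.86e-06). None of these groups overlapped.

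The other members moved less. TPM1 was at 16.7, 16.3 and 15.7 CPM with vehicle and at 22.2, 21.6 and 23.8 CPM with DOX (log2 fold change 0.45 ± 0.0877 SE, edgeR adjusted p = 0.00141). ACTA2 had 0.905, 0.896 and 0.784 CPM with vehicle and 1.07, 1.31 and 2.07 CPM with DOX. Its log2 fold change was 0.76 ± 0.275 (SE, edgeR adjusted p = 0.0389), which became 0.45 without DOX replicate 3, the highest library (adjusted p = 0.188), and 0.68 without vehicle replicate 3 (adjusted p = 0.114). VCL rose from 332, 322 and 308 CPM to 374, 399 and 399 CPM (log2 fold change 0.26 ± 0.0586 SE, edgeR adjusted p = 0.00327).

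SRF and TPM2 were the members downregulated on MYC silencing. SRF fell from 56.3, 56.0 and 48.5 CPM to 33.8, 39.6 and 39.8 CPM, with a log2 fold change of -0.53 ± 0.0917 (SE, edgeR adjusted p = 0.000696), and the groups did not overlap. TPM2 fell from 223, 229.8 and 209.6 CPM to 155, 187 and 193 CPM (log2 fold change -0.33 ± 0.083 SE, edgeR adjusted p = 0.0069). CNN1 was not tested, with 10, 4 and 6 counts with vehicle and 6, 10 and 6 counts with DOX.

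The response to silencing MUC1-C was set against that to MYC silencing as a difference of the changes over 12 libraries, in which 8 members were tested. For 3 members the change was higher on silencing MUC1-C, for 2 it was lower, and for ACTA2, TPM2 and VCL the difference did not pass. MYL9, 1 of the 2 lower, entered this fit through the tet-MYCshRNA libraries with DOX, where it is high, and is given as values only. Over all 21585 genes tested, 26.0% passed in the first direction and 26.9% in the second. CALD1 differed by 2.61 ± 0.126 on the log2 scale (SE, edgeR adjusted p = 1.44e-11) and TPM1 by 1.49 ± 0.139 (SE, adjusted p = 7.66e-08), both with the greater rise on silencing MUC1-C. TAGLN differed by -1.58 ± 0.439 (SE, edgeR adjusted p = 0.00616), with the greater rise on MYC silencing. The fitted difference for MYL9 was -4.43 ± 0.858 (SE), with at most 20 counts in each tet-MUC1shRNA library and mean levels there of 0.227 CPM with vehicle and 0.096 CPM with DOX. SRF, which fell on MYC silencing, differed by 0.62 ± 0.109 (SE, edgeR adjusted p = 0.000115). The median difference was 0.05 over all genes. With scaling by library size alone, the median of all genes moved to 0.25, and the differences of TPM2 and VCL changed sign.

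GO-203 treatment of 3D cells shares its 3D libraries with the comparison of 3D vs. 2D cells. Of 8 members tested, 2 were upregulated, 0 were downregulated and 6 did not pass, and over all 18488 genes tested 11.1% passed upward and 12.9% downward. TAGLN rose from 1.25, 0.878 and 1.09 CPM in 3D cells to 3.07, 2.31 and 2.46 CPM with GO-203. That is 2.50-fold, with a log2 fold change of 1.32 ± 0.222 (SE, edgeR adjusted p = 0.000164) and no overlap, and each treated library remained far below each 2D library. The median log2 fold change was 0.14 over the 8 members and 0.02 over all genes.

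CALD1 was at 4.84, 5.13 and 4.39 CPM in 3D cells and at 6.89, 5.17 and 6.79 CPM with GO-203. The groups just failed to overlap, and the log2 fold change was 0.43 ± 0.141 (SE, edgeR adjusted p = 0.0367). It did not pass without 3D replicate 3 (adjusted p = 0.113), without GO-203 replicate 1 (adjusted p = 0.167) or without GO-203 replicate 3 (adjusted p = 0.134). TPM1 had 6.78, 7.43 and 9.39 CPM with GO-203, overlapping 3D cells, and its log2 fold change of 0.26 ± 0.13 (SE, edgeR adjusted p = 0.189) did not pass. The log2 fold changes of the other tested members that did not pass were -0.09 for ACTA2, 0.38 for MYL9, -0.02 for TPM2, -0.08 for SRF and 0.01 for VCL. The SRF groups did not overlap (46.4 to 49.96 CPM in 3D cells and 42.6 to 46.3 CPM with GO-203). CNN1 was too low to be tested, with 4, 3 and 2 counts in 3D cells and 6, 14 and 20 counts with GO-203, which do not overlap. In fits in which it did enter, its log2 fold change was 2.28 without a filter on low counts (edgeR adjusted p = 0.0429) and 2.27 with all 21 libraries (adjusted p = 0.0582). It also entered the fits without 3D replicate 1, 2 or 3 or GO-203 replicate 1, through the GO-203 libraries, where it is high. Its log2 fold changes there, from 1.96 to 2.63, are given as values only.

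As a difference of changes, 4 members moved further upward on silencing MUC1-C than with GO-203, 2 further downward, and 3 did not pass, against 20.8% and 24.1% of the 20829 genes tested. MYL9 was 1 of the 2 and CNN1 1 of the 3, and both were too low for a test of their own on silencing MUC1-C, so their values support no difference. CALD1 differed by 3.40 ± 0.123 on the log2 scale (SE, edgeR adjusted p = 2.96e-17) and TPM1 by 1.70 ± 0.156 (SE, adjusted p = 1.49e-09). VCL differed by 0.22 ± 0.0664 (SE, edgeR adjusted p = 0.00893), SRF by 0.19 ± 0.0794 (adjusted p = 0.0598) and TPM2 by -0.48 ± 0.0949 (adjusted p = 0.000191). The fitted difference for MYL9 was -1.65 ± 0.731 (SE), and it was -0.99 without vehicle replicate 3. The SRF call was lost without 3D replicate 1 or 2, GO-203 replicate 2, vehicle replicate 3 or DOX replicate 1 (adjusted p 0.112 to 0.18). TAGLN, which rose in both, differed by 0.07 ± 0.345 (SE, edgeR adjusted p = 0.901). The median difference was 0.00 over all genes, and library size alone moved it to 0.15.

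Ordered by mean level, 2D cells were highest for ACTA2, TAGLN, CNN1, MYL9 and TPM1, and in each of these the 2D libraries did not overlap the group that came next. How often this holds over all genes was not counted, so it is not read as particular to these members. For CALD1, 2D cells (102 ± 4.65 CPM, SD, n = 3) and tet-MUC1shRNA cells with DOX (101 ± 2.79) overlapped, followed without overlap by tet-MYCshRNA cells with DOX (28.0 ± 3.30), then vehicle (12 ± 1.02). Vehicle-treated tet-MUC1shRNA cells (7.19 ± 0.383) overlapped GO-203-treated cells (6.29 ± 0.966), and 3D cells were lowest (4.78 ± 0.376). SRF was highest in tet-MUC1shRNA cells with DOX (64.9 ± 1.47 CPM) and lowest in 2D cells (32.4 ± 2.74), which overlapped tet-MYCshRNA cells with DOX (37.7 ± 3.41). TPM2 was highest in 3D cells (261 ± 24.7 CPM), overlapping GO-203-treated and 2D cells, and lowest in tet-MUC1shRNA cells with DOX (111 ± 7.05). VCL had the smallest ratio of highest to lowest group mean, from 274 ± 2.45 CPM in vehicle-treated tet-MUC1shRNA cells to 391 ± 14.4 in tet-MYCshRNA cells with DOX.

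The cofactors of SRF formed a list of 7 genes. MRTFA and MRTFB, the coactivators that answer to free actin, fell in 3D vs. 2D cells by 1.01 and 0.89 on the log2 scale (edgeR adjusted p = 3.87e-09 and 4.52e-09), where SRF itself rose. MRTFA was at 55.2 to 61.6 CPM in 2D cells and 26.8 to 31.1 CPM in 3D cells. On MYC silencing, where SRF fell, MRTFA rose by 0.52 and MRTFB by 0.45 (edgeR adjusted p = 0.00746 and 0.000135). Both also rose where SRF did not pass downward, by 0.22 and 0.33 on silencing MUC1-C (edgeR adjusted p = 0.00508 and 2.46e-05) and by 0.20 and 0.37 with GO-203 (adjusted p = 0.0608 and 0.000157). The largest changes of a cofactor on silencing MUC1-C were those of FHL2, a LIM protein that binds SRF, which rose by 1.08, and SCAI, an inhibitor of MRTFs, which fell by 0.82 (edgeR adjusted p = 6.69e-11 and 2.88e-10), and FHL2 fell by 0.70 on MYC silencing (adjusted p = 0.000264). ELK3, a factor of the ternary complex family that also binds with SRF, rose by 2.83 in 3D cells (edgeR adjusted p = 8.23e-16). Of the 7 cofactors, 3 rose and 3 fell in 3D vs. 2D cells, 3 rose and 4 fell on silencing MUC1-C, 2 rose and 3 fell on MYC silencing, and 2 rose and 1 fell with GO-203. The shares of all genes tested that rose and fell were 32.0% and 31.7% in 3D vs. 2D cells, 30.7% and 31.6% on silencing MUC1-C, 30.3% and 28.1% on MYC silencing, and 11.1% and 12.9% with GO-203.

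Other genes of differentiated smooth muscle formed a list of 11, of which 7 could be tested in 3D vs. 2D cells. There 4 fell and 2 rose, with a median log2 fold change of -1.47 (all genes -0.01, of which 31.7% fell and 32.0% rose). SMTN (smoothelin) fell by 2.06 and SYNM (synemin) by 2.04 (edgeR adjusted p = 2.4e-13 and 2.23e-10), whereas MYOCD (myocardin, an SRF coactivator of muscle) rose by 2.81 (adjusted p = 1.44e-07), at no more than 2.53 CPM in 3D cells. On silencing MUC1-C, 1 of 6 tested rose and 3 fell (30.7% and 31.6% of all genes). The rise was that of SYNPO2 (log2 fold change 2.12, edgeR adjusted p = 2.71e-06), from 0.315 to 0.423 CPM with vehicle to 1.41 to 1.77 CPM with DOX. MYOCD and SMTN were among the falls. On MYC silencing 4 of 7 rose and 1 fell (30.3% and 28.1% of all genes). SYNM rose by 1.85 and MYLK, the kinase of the myosin light chain, by 1.05 (edgeR adjusted p = 2.75e-07 and 1.5e-06), and SMTN fell by 1.21 (adjusted p = 4.65e-05). With GO-203, 2 of 7 rose and 2 fell (11.1% and 12.9% of all genes).

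Of the actins, myosins and partners of non-muscle cells, 12 of 13 were tested. In 3D vs. 2D cells 1 rose and 6 fell (32.0% and 31.7% of all genes), with a median of -0.15 and MYH9, the heavy chain of non-muscle myosin IIA, at -0.93 (edgeR adjusted p = 1.08e-09). On silencing MUC1-C 1 rose and 6 fell (30.7% and 31.6% of all genes), with a median of -0.09 and TPM4 at -0.79 (edgeR adjusted p = 3.44e-13). On MYC silencing 4 rose and 4 fell, and with GO-203 2 rose and 3 fell, where 30.3% and 28.1%, and 11.1% and 12.9%, of all genes did. Not 1 of these genes passed with a log2 fold change beyond 1.5 in any of the 4 comparisons.

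Genes of focal adhesions and actin crosslinking (17 genes), where VCL acts, moved in both directions, with 7 up and 7 down in 3D vs. 2D cells, 5 and 7 on silencing MUC1-C, 7 and 4 on MYC silencing, and 3 and 5 with GO-203. All genes moved in both directions too, at the shares given for the SRF cofactors. TLN2, a talin, fell by 3.22 in 3D cells (edgeR adjusted p = 1.95e-13), and TES, a LIM protein of adhesions, rose by 2.58 on silencing MUC1-C (adjusted p = 6.77e-16), where TGFB1I1, another LIM protein of adhesions, fell by 1.60 (adjusted p = 3.09e-14).

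**Figure D4:**
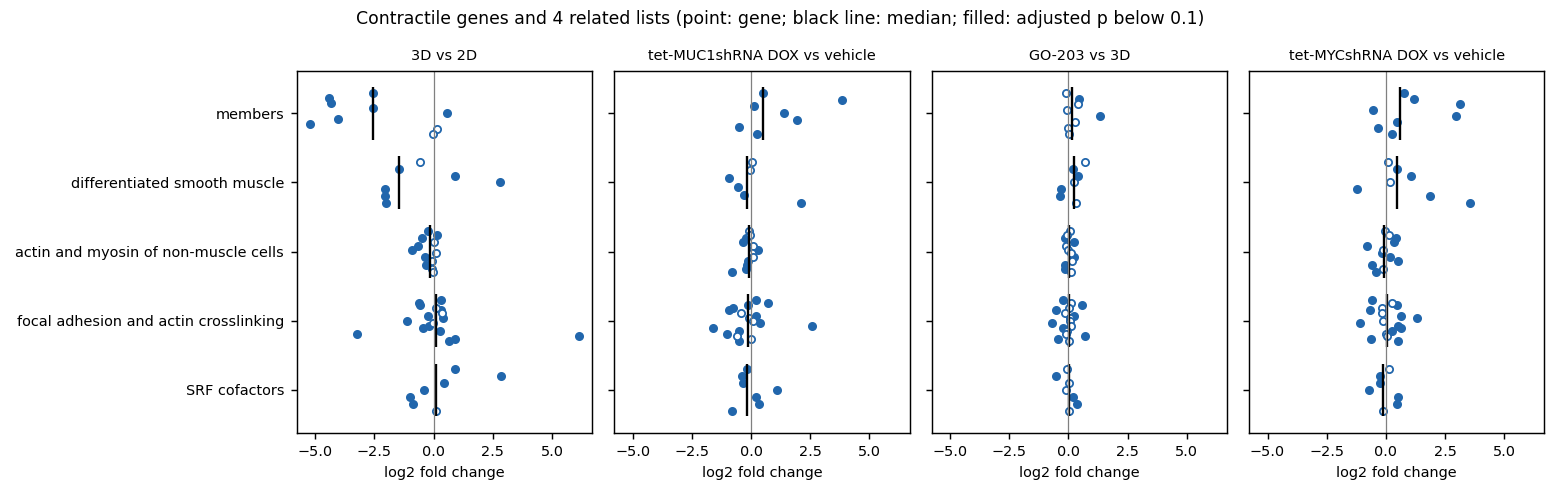
Log2 fold change (horizontal axes) of each tested gene of the contractile set and of 4 related lists in the 4 comparisons, with the median as a black line and filled points for an adjusted p below 0.1. In 3D vs. 2D cells the medians are -2.57 for the contractile genes and -1.47 for smooth muscle genes, and those of the other 3 lists lie between -0.15 and 0.12.

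For the 7 members with a mean of at least 1 CPM, the genes whose log2 CPM ran most like theirs over the 21 libraries were found among 13577 genes. These values describe 7 groups of similar libraries that share depth and scaling, not 21 independent points. The nearest gene to CALD1 was PHACTR2 (Pearson r = 0.987), to TAGLN it was TGFB2 (0.98), to TPM1 ANKRD50 (0.98) and to ACTA2 TGFB3 (0.961). SRF ran most like RRP9 (0.976), TPM2 like RPL36 (0.978) and VCL like PIP5K1C (0.933).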

How the data were processed

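The authors aligned paired-end reads from stranded mRNA libraries to GRCh38 with STAR, 2.7.3a per the labels and another version in the published methods. They counted reads per gene with featureCounts and deposited raw counts, without normalization. Annotation release, strand setting and handling of read mates are not given in the sources used here. Blank cells of the deposited count table were read as 0.

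For each comparison, its 6 libraries were fitted with edgeR 4.0.16 under R 4.3.3 (filterByExpr, TMM, quasi-likelihood test, Benjamini-Hochberg adjustment over all genes tested), and differences of changes on 12 libraries. Passing meant an adjusted p below 0.1. CPM and floors (3 counts for a count of 0) cover counting error only. Gene positions and exon lengths are from GENCODE on GRCh38. The contractile genes and the lists were chosen with earlier results of these data known. One further list is not reported here. Named were all 10 members, up to 2 rises and 2 falls per other list and comparison (adjusted p below 0.1, mean of at least 1 CPM), and the closest genes by correlation. ACTB, CNN2, TAGLN2, MYL12A, MYL12B, MYL6 and CNN3 in 3D vs. 2D cells, and MRTFA on silencing MUC1-C, were named beside their relatives after their values were seen, and genes used for checks as a group. SYNPO2 on silencing MUC1-C was named outside this rule, also after its values were seen.

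Replicate numbers were not used as pairs in the reported fits. Deviations of same-numbered libraries correlated between -0.5 and 0.48, with a mean of 0.21 in GO-203 vs. 3D. These are too few values to exclude pairing. Alternatives were DESeq2 1.42.0, RLE factors, library size alone, no filter, a minimum of 10 counts per library, a joint fit of the 21 libraries, a replicate block, a threshold of 0.05, other mammospheres in place of 3D cells, leaving out each library and, chosen after seeing the data, halved counts. In simulated data with 200 genes changed by a log2 of 2, 98.5% to 100% were recovered. Genes of low mean count were left out of the simulation, and every gene was given the same set spread. The recovery therefore does not apply to low genes such as CNN1, MYL9 and ACTG2.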

Additional observations from a re-analysis of the deposited data

Results flagged for a closer look

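The results marked here are differences between 2 responses that passed a test of the difference itself, edgeR's quasi-likelihood test over 12 libraries, for genes that could also be tested in each response alone. Between silencing MUC1-C and MYC silencing, on the log2 scale and as the first minus the second, these were CALD1 (2.61), TPM1 (1.49), SRF (0.62) and TAGLN (-1.58). CALD1 and TPM1 rose further on silencing MUC1-C, and TAGLN rose further on MYC silencing.

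Between silencing MUC1-C and GO-203, these were CALD1 (3.40), TPM1 (1.70), VCL (0.22), SRF (0.19) and TPM2 (-0.48). The difference for SRF was lost when some single libraries were left out. In the first set of differences the line and its passage change along with the target, and in the second the tet vector and DOX, and these cannot be told apart.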

How the results depend on the processing

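Counts of members that passed stayed within 1.5 times the reported ones under each alternative in all 6 comparisons. The exception is GO-203 vs. 3D, where 1 to 3 passed when single libraries were left out, with 1 without 3D replicate 3 or GO-203 replicate 3. The other ranges over left-out libraries were 7 to 8 (3D vs. 2D), 6 to 7 (silencing MUC1-C), 7 to 8 (MYC silencing), 5 to 6 (MUC1-C minus MYC) and 4 to 6 (MUC1-C minus GO-203). With the replicate block, 7, 7, 2, 8, 5 and 6 members passed, as without it, and no member's call changed. All of these counts include CNN1 and MYL9 where they entered a fit and passed.

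Log2 values that changed sign were those of members whose reported value did not pass. In 3D vs. 2D cells, TPM2 went to -0.57 and -0.10 with tet-MUC1shRNA and tet-MYCshRNA vehicle mammospheres in place of 3D cells, and VCL to 0.07 with the latter and, over left-out libraries, from -0.08 to 0.01. With GO-203, VCL was at -0.02 in the fit of all 21 libraries and from -0.01 to 0.05 with single libraries left out, TPM2 ranged from -0.07 to 0.06 and ACTA2 from -0.26 to 0.04. For MUC1-C minus MYC, library size alone gave 0.02 for TPM2 and 0.16 for VCL. VCL was at 0.02 without a filter and 0.03 with at least 10 counts, and ACTA2 ranged from -0.44 to 0.06 with single libraries left out, the latter without tet-MYCshRNA DOX replicate 3. For MUC1-C minus GO-203, CNN1 was at 0.03 with library size alone and from -1.39 to 0.87 with single libraries left out, and TAGLN from -0.08 to 0.30. The difference for SRF also missed the threshold with other settings (0.21 without a filter and 0.20 in the joint fit). The cause was not tested.

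Depth limits CNN1, MYL9 and ACTG2, which hold at most 82 counts in any mammosphere library, and the deposited counts do not separate isoforms, read mates or overlapping genes.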
